A study of Saccharomyces cerevisiae with 10 samples.

Results

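The genes described here are the 7 hexose transporter genes HXT1 to HXT7 and the 2 glucose sensor genes SNF3 and RGT2 of Saccharomyces cerevisiae. They were picked by systematic name for their known function, with earlier results of these data known but no value in the rule, and are 9 of the 6717 yeast genes in the deposited table. mRNA was measured by RNA-seq in an rpb1-1/caf1Δ strain that is MATa and carries mutant alleles of the marker genes LEU2, HIS3 and URA3, the rpb1-1 allele of the largest RNA polymerase II subunit, which is inactive at 37 °C, and a deletion of CAF1 marked with HIS3. Caf1 (listed as POP2) is a deadenylase of the Ccr4-Not complex, which shortens poly(A) tails. A culture in mid-log growth was sampled at 24 °C before the shift (0 min) and at 37 °C, the non-permissive temperature at which transcription is shut off. Sampling at 37 °C was at 3, 6 and 8 min, then at 10, 15 and 20 min and last at 30, 45 and 60 min. The labels list 1 library per time point and also mention a duplicate culture, without saying whether it entered the deposited values. With 1 value per time point, no value has a replicate error, and p-values measure only the scatter around a line through these libraries.

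The strain without the deletion was not analysed here, so nothing below is set against cells with Caf1. Loss of transcription and heat start in the same step in this design and cannot be told apart. One label gives the strain as yJC1257 and another as yJC244, the rpb1-1 strain with CAF1. POP2 (YNR052C) reached a scaled FPKM of only 0.887 at 0 min and was listed at 0 in the 30 and 60 min libraries, with between 0 and 4 estimated fragments per library. The sugar in the medium of this culture is not given in the sources used here. FPKM, fragment numbers per transcript length and sequencing depth, were scaled so that the ERCC spike-in RNAs added to each RNA sample had the same summed FPKM in every library. The estimated depth was 2293468 to 4956328 fragments per library, and the summed scaled yeast FPKM at 60 min was 52.6% of that at 0 min.

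Yeast takes up glucose by facilitated diffusion through the Hxt carriers, membrane proteins that differ in their affinity for the sugar. Snf3 and Rgt2 resemble these carriers but carry long cytoplasmic tails and serve as sensors, Snf3 for scarce and Rgt2 for abundant glucose. Glucose sensing leads to the breakdown of Mth1 and Std1, which otherwise help the repressor Rgt1 to hold the HXT genes off, while the Snf1-Mig1 pathway keeps high-affinity carriers off in rich glucose. HXT genes are thus known as genes whose transcription follows the sugar supply. Here their mRNAs were followed as RNA polymerase II was inactivated.

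All 9 genes have 1 exon, and none overlaps another annotated gene in the R64 RefSeq annotation, to which they were matched by name. The alignment used sacCer2, so the coordinates here are those of R64 alone. HXT4 (YHR092C, chromosome VIII, 287081 to 288811), HXT1 (YHR094C, chromosome VIII, 290913 to 292625) and HXT5 (YHR096C, chromosome VIII, 294669 to 296447) lie side by side on the minus strand. HXT7 (YDR342C, chromosome IV, 1154216 to 1155928), HXT6 (YDR343C, chromosome IV, 1159608 to 1161320) and HXT3 (YDR345C, chromosome IV, 1162957 to 1164660) form a second cluster, also on the minus strand. HXT2 (YMR011W, chromosome XIII, 288079 to 289704), SNF3 (YDL194W, chromosome IV, 111580 to 114234) and RGT2 (YDL138W, chromosome IV, 213351 to 215642) stand alone on the plus strand.

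HXT6 and HXT7 are near-identical. Their R64 coding sequences differ at 3 of 1713 bases (99.82% identity), and 94.9% of all windows of 100 bases in each have an exact copy elsewhere in the genome. How the authors' counting treated reads that match both genes is not given in the sources used here, so the levels of HXT6 and HXT7 and the split between them are uncertain. The other members were far less affected. In HXT3, 3.61% of windows had an exact copy elsewhere, against 1.24% in HXT1, 1.19% in HXT5 and 0 in HXT2, HXT4, SNF3 and RGT2. Windows that matched another sugar transporter family gene with up to 3 mismatches made up 100% of HXT6 and HXT7. They made up 11.3% of HXT3, 2.79% of HXT1, 2.68% of HXT5 and 0 of the others. Among the other pairs with HXT6, the coding identity was 83.2% with HXT4, 82.9% with HXT3 and 66.8% with SNF3, and the sensors SNF3 and RGT2 shared 70.4%.

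The transporter mRNAs spanned a wide range at 0 min. HXT3, a low-affinity carrier, was by far the most abundant, with a scaled FPKM of 1047 (95% counting interval 1022 to 1073), above 98.3% of the genes tested. HXT2, a carrier of higher affinity, came next with 194.9 (184 to 207). HXT5 with 35.3 (30.8 to 40.1), HXT4 with 32.5 (28.2 to 37.3) and HXT1 with 32.4 (28.1 to 37.2) did not differ beyond their counting intervals. RGT2 followed with 12.9 (10.6 to 15.5), SNF3 with 6.97 (5.46 to 8.85), HXT7 with 3.58 (2.22 to 5.37) and HXT6 with 0.163, which is 1 fragment. These intervals are exact Poisson intervals of the estimated fragments and cover counting error only.

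By 60 min the order had changed. HXT3 was still highest with 331.7 (320 to 343), but HXT5 with 82.7 (77.2 to 88.5) now stood beside HXT2 with 80.6 (74.95 to 86.7), and their intervals overlap. HXT4 had 16.7 (14.3 to 19.5), and SNF3 with 7.44 (6.16 to 8.93), RGT2 with 6.93 (5.60 to 8.49) and HXT7 with 4.92 (3.63 to 6.53) lay close together. HXT1, level with HXT4 and HXT5 at 0 min, had 2.36 (1.495 to 3.54) and exceeded only HXT6 with 0.718 (0.289 to 1.48). Averaged over the 10 libraries, with the SD over time points, the levels were 679.4 ± 297 for HXT3, 207.7 ± 69.5 for HXT2, 70.8 ± 27.8 for HXT5 and 27.9 ± 9.22 for HXT4. They were 11.7 ± 8.81 for HXT1, 9.89 ± 2.69 for SNF3, 9.53 ± 3.29 for HXT7, 9.03 ± 1.75 for RGT2 and 0.891 ± 0.474 for HXT6. From HXT1 to RGT2, neighbours in this order differ by less than these SDs, which hold the change over time and are not errors of the means.

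**Figure D1:**
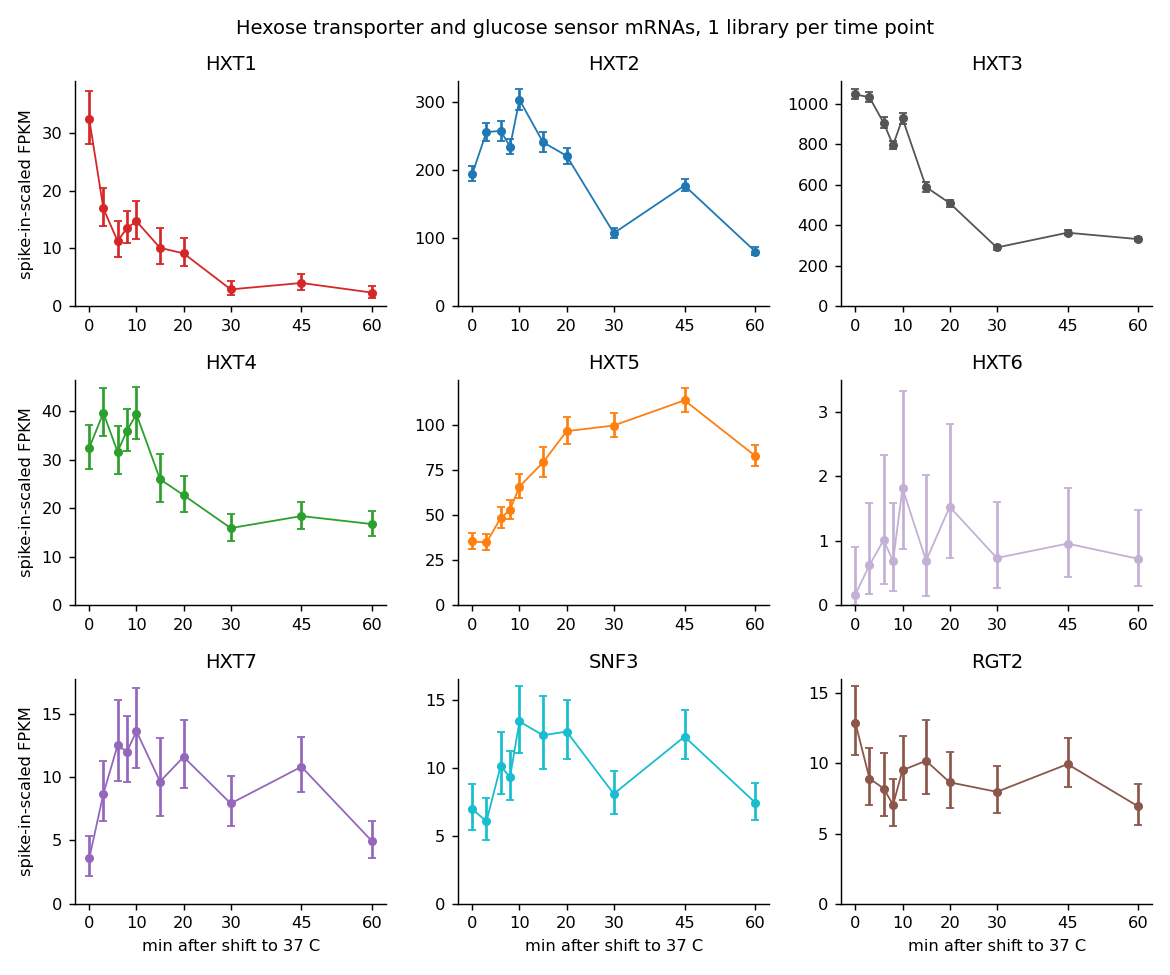
Spike-in-scaled FPKM of each gene (vertical axes, each from 0 and with its own range) against min after the shift to 37 °C, with points for the 1 library per time point and bars for 95% Poisson counting intervals. HXT1 and HXT3 end far below their start, and HXT5 climbs to 113.5 at 45 min. HXT7 and SNF3 are highest at 10 min with this scaling, with bars that overlap those of other libraries.

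A line over time was fitted with limma to log2(scaled FPKM + 1) of 5176 named protein-coding genes with a mean scaled FPKM of at least 1, and called at a Benjamini-Hochberg adjusted p of at most 0.05. Of the 9 genes, HXT1, HXT2, HXT3 and HXT4 fell over 0 to 60 min, HXT5 rose, and HXT7, SNF3 and RGT2 did not pass. HXT6, with a mean of 0.891, was below the minimum and was not tested. Over all genes tested, 57.7% fell and 1.68% rose, so 4 falling members of 8 tested is close to the share for any gene. The median slope of the 8 members was −0.13 per 10 min on the log2 scale, against −0.17 for all genes tested.

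HXT1 encodes a low-affinity carrier that is known to be induced by abundant glucose, and its mRNA had the steepest slope of the members. Its scaled FPKM was 32.4 before the shift, 16.9, 11.3, 13.5 and 14.7 in the 4 libraries between 3 and 10 min, 10.1 and 9.15 in those of 15 and 20 min, and 2.92, 4.03 and 2.36 in those of 30, 45 and 60 min. All later libraries lay below the 0 min library, and 0.522 of the level was left in the first of them, at 3 min. The level at 60 min was 0.0728 of that at 0 min (95% counting interval 0.0451 to 0.112), which is lower than in all but 2.40% of the genes tested. The slope was −0.48 per 10 min (SE 0.0705, limma adjusted p = 0.000343).

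HXT3, the other low-affinity carrier, fell as well. It had 1047 before the shift, 1032, 906.4, 795.9 and 927.9 in the 4 libraries between 3 and 10 min, 588.9 and 509.8 in those of 15 and 20 min, and 290.5, 363.5 and 331.7 in those of 30, 45 and 60 min. Up to 10 min the level stayed at 0.76 of that at 0 min or above, and the last 3 libraries lay between 0.277 and 0.347 of it. The level at 60 min was 0.317 of that at 0 min (0.303 to 0.330), beside a median of 0.359 for all genes tested. Its slope was −0.32 per 10 min (SE 0.0580, limma adjusted p = 0.000879).

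HXT2 and HXT4, carriers of moderate to high affinity, fell over the whole course, although neither passed over its first 20 min. HXT2 had 194.9 before the shift, 256.4, 258.2, 235.1 and 304.0 in the 4 libraries between 3 and 10 min, 241.4 and 221.5 in those of 15 and 20 min, and 107.7, 177.7 and 80.6 in those of 30, 45 and 60 min. It was above the 0 min level in the 6 libraries from 3 to 20 min and below it in the 3 later ones, with a highest value of 1.56 times the 0 min level at 10 min (1.44 to 1.68). Its slope was −0.25 per 10 min over the course (SE 0.0608, limma adjusted p = 0.00455). HXT4 ranged between 15.9 at 30 min and 39.7 at 3 min, with 0.514 of the 0 min level at 60 min (0.417 to 0.635) and a slope of −0.21 per 10 min (SE 0.0487, limma adjusted p = 0.00296). Both calls were lost when libraries were scaled to the same total yeast FPKM (limma adjusted p = 0.130 for HXT2 and 0.108 for HXT4), and that of HXT2 also without the 60 min library (0.106).

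HXT5, a carrier known from slow growth and from cells without fermentable sugar, was the only member that rose over the whole course. It had 35.3 before the shift, 34.7, 48.1, 52.7 and 65.7 in the 4 libraries between 3 and 10 min, 79.1 and 96.4 in those of 15 and 20 min, and 99.5, 113.5 and 82.7 in those of 30, 45 and 60 min. Each library from 6 min on was above the 0 min library, and from 3 to 45 min each was above the one before. The level was 3.22 times that at 0 min at 45 min (2.79 to 3.73) and 2.34 times at 60 min (2.03 to 2.73), above 99.3% of the genes tested. Its slope was 0.23 per 10 min (SE 0.0667, limma adjusted p = 0.0109), and between 0.20 and 0.39 when any library was left out (adjusted p between 0.00259 and 0.0370).

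HXT7 and HXT6, high-affinity carriers that are known to be repressed in rich glucose, were low throughout in the deposited values. How reads that match both were treated is not known. HXT7 had 3.58 before the shift, 8.69, 12.5, 12.0 and 13.6 in the 4 libraries between 3 and 10 min, 9.65 and 11.6 in those of 15 and 20 min, and 7.92, 10.8 and 4.92 in those of 30, 45 and 60 min. Its 9 later libraries were all above the 0 min library, where it had 22 estimated fragments. The level at 10 min was 3.81 times that at 0 min (2.36 to 6.48), and that at 60 min 1.37 times (0.822 to 2.42), an interval that includes 1. The course did not pass as a line, with a slope of −0.06 per 10 min (SE 0.0835, limma adjusted p = 0.576), but without the 0 min library it fell by 0.14 per 10 min (adjusted p = 0.0411). HXT6 had 1 estimated fragment at 0 min and between 3 and 10 in the later libraries. Its ratio at 60 min was 4.41 with a counting interval of 0.573 to 201, so a difference was not detectable at this depth. The intervals lay above 1 only at 10 min (1.60 to 488) and 20 min (1.35 to 411) and included 1 in all other later libraries. All of them rest on the same 1 fragment at 0 min and are not adjusted for their number. Of the genes tested that had a level at 0 min, 2.53% were above it in every later library, among them HXT7, and 76.2% were below it in every one, among them HXT1, HXT3 and RGT2. HXT6, which is not in that set, was also above its single fragment of 0 min in every later library.

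The sensor mRNAs were scarce and did not pass the test over the whole course. SNF3 had 6.97 before the shift, 6.07, 10.1, 9.33 and 13.4 in the 4 libraries between 3 and 10 min, 12.4 and 12.7 in those of 15 and 20 min, and 8.09, 12.3 and 7.44 in those of 30, 45 and 60 min. It was above the 0 min level in 8 of 9 later libraries, and its level at 60 min was 1.07 times that at 0 min (0.784 to 1.45). The counting interval of its relative level lay above 1 at 6, 10, 15, 20 and 45 min and included 1 at 3, 8, 30 and 60 min. Its slope was 0.01 per 10 min (SE 0.0623, limma adjusted p = 0.868). RGT2 had 12.9 at 0 min and between 6.93 and 10.2 in the later libraries, all below the 0 min level, with 0.537 of it at 60 min (0.404 to 0.715). The slope of RGT2 was −0.05 per 10 min (SE 0.0457, limma adjusted p = 0.358), and its level at 3 min was already 0.691 of that at 0 min.

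The order of the sensor mRNAs was resolved in only some of the libraries. The ratio of SNF3 to RGT2 in scaled FPKM does not depend on the spike-ins, since both come from the same library. It was 0.541 before the shift (95% counting interval 0.397 to 0.740) and 0.681 after 3 min (0.481 to 0.961). From 6 min on the ratio was above 1 in every library, but its interval lay above 1 only at 10 min, with 1.41 (1.04 to 1.92), and at 20 min, with 1.47 (1.10 to 1.97). In the other 6 libraries the interval included 1, with ratios between 1.02 at 30 min and 1.32 at 8 min.

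**Figure D2:**
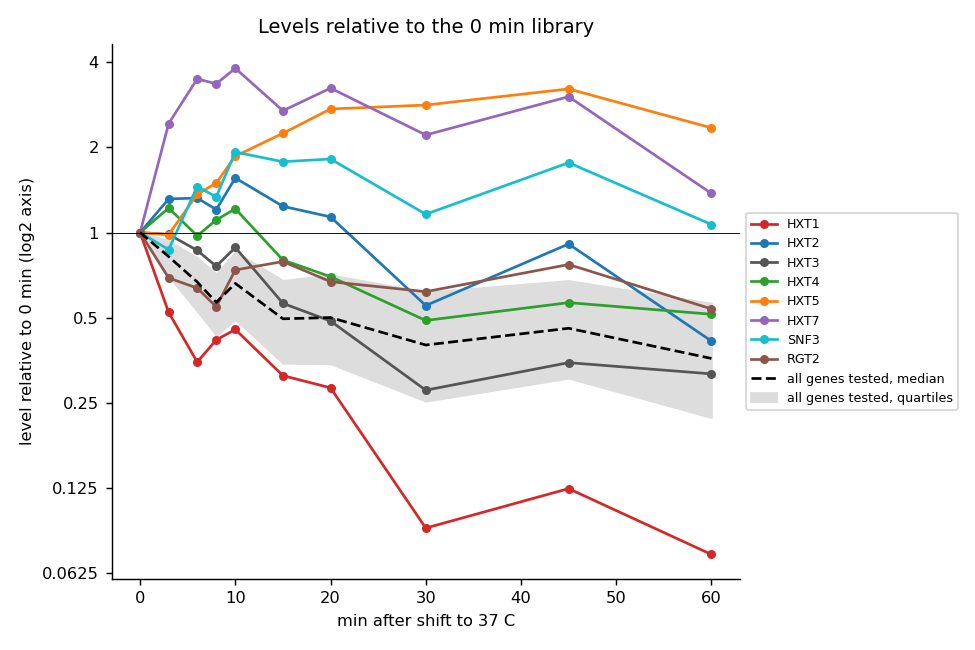
Level relative to the 0 min library (log2 axis) against min after the shift, for the 8 genes tested, with the median (dashed) and quartiles (grey) of all genes tested. HXT5, HXT7 and SNF3 stay above the grey band in every library from 6 min on, HXT1 below it, and the median gene ends at 0.359.

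After spike-in scaling, all 9 genes were higher at 45 min than at 30 min, as were 74.3% of all genes tested, and all 9 were higher at 10 min than at 8 min, as were 82.2%. In the FPKM as deposited, 9 of the 9 were still higher at 45 min than at 30 min, beside 54.6% of all genes, but only 5 of the 9 were higher at 10 min than at 8 min, beside 46.8%. The spike-in factors were 1.23 at 45 min against 1.36 at 30 min, and 1.05 at 10 min against 1.25 at 8 min, and their part in the steps was not tested.

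Over the first 20 min alone, HXT5 and SNF3 rose and HXT1 and HXT3 fell. The slope of HXT5 was 0.78 per 10 min (SE 0.109, limma adjusted p = 0.000578) and that of SNF3 0.48 (SE 0.144, adjusted p = 0.0181). HXT3 fell by 0.55 per 10 min (SE 0.113, adjusted p = 0.00326) and HXT1 by 0.69 (SE 0.180, adjusted p = 0.00973). HXT7 had the same slope as SNF3, 0.48, but with a wider error (SE 0.242, adjusted p = 0.111), and HXT2 had 0.03 (adjusted p = 0.834). In this range 2.32% of all genes rose and 59.5% fell. The median slope was −0.04 per 10 min for the 8 members and −0.46 for all genes tested, and this difference was not tested. The call of SNF3 was lost without the 0 min library (adjusted p = 0.0577) or the 3 min library (0.0603), and that of HXT1 without the 0 min library (0.0564). HXT4, with −0.31 and an adjusted p of 0.0697, passed without the 0 min library (0.0399) or the 10 min library (0.0460).

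From 10 to 60 min none of the 8 genes passed, with limma adjusted p-values between 0.0515 for HXT1 and 0.470 for HXT5. The test made hardly any call in this range, since 0.0193% of all genes fell and 0.0% rose. Of the 5176 genes tested, 1882 had an unadjusted p under 0.05. Of the members, HXT1, HXT2, HXT3, HXT4 and HXT7 were among these, all with a negative slope. The median slope was −0.19 per 10 min for the 8 members and −0.10 for all genes tested, and this difference was not tested. With a negative median over all genes, a decline here is not particular to the members. HXT2 had −0.32 per 10 min in this range, against 0.03 in the first 20 min, and SNF3 had −0.12 against 0.48; these differences were not tested. With the 30 min library left out 4 members fell, but so did 26.9% of all genes, while 0.522% rose. With the 45 min library left out 2 members fell, beside 6.84% of all genes, and 0.0193% rose.

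**Figure D3:**
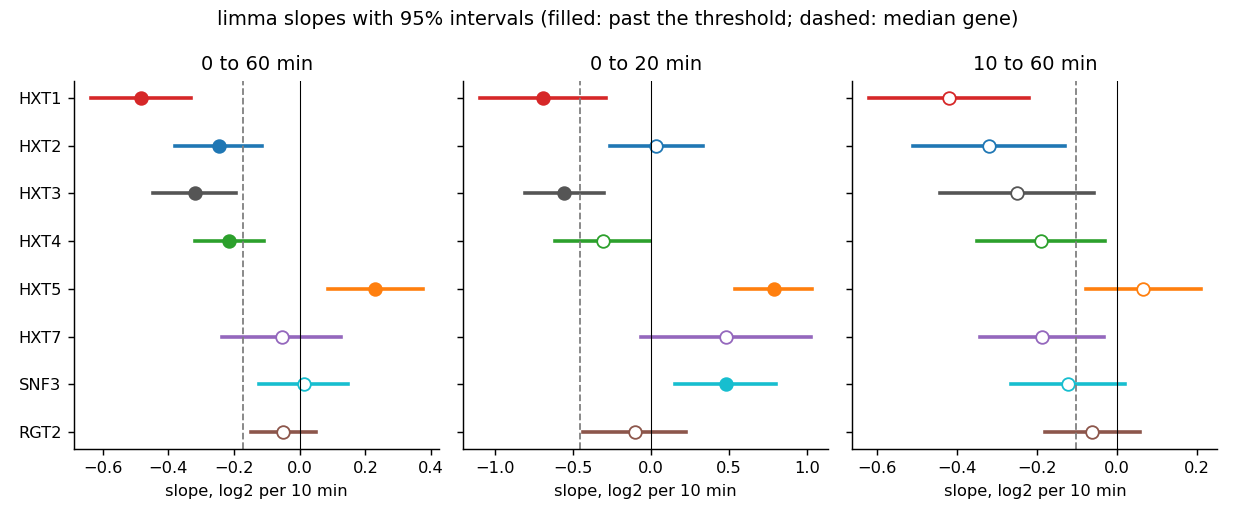
Slopes of the 8 genes tested (log2 per 10 min, with 95% limma intervals) over 0 to 60, 0 to 20 and 10 to 60 min, each panel with its own range. Filled points passed an adjusted p of 0.05, and the dashed line is the median slope of all genes tested, −0.17, −0.46 and −0.10.

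Exponential decay curves through 1 at 0 min gave half-lives for 3 of the 9 mRNAs, where a half-life counted if it did not exceed 60 min and if the curve missed the levels by no more than 0.14 on average. The same limits were met by 53.0% of all genes fitted, with a median half-life of 15.8 min. The half-life of HXT1 was 6.77 min (SE 1.08), that of HXT3 was 24.0 min (SE 2.89) and that of HXT4 was 56.8 min (SE 16.1). Among the genes that met the limits, 13.0% had a shorter half-life than HXT1. That of HXT4 lay close to the limit of 60 min, which places it near the top of that set by construction. RGT2 missed the limit on the misfit with 0.152, HXT2 gave 142.6 min, and HXT5, HXT6, HXT7 and SNF3 gave no decay. These numbers depend on the scaling and the model. That of HXT1 was 17.9 min from a straight line through the logarithm, that of HXT3 was 52.1 min at the same total yeast FPKM, and that of HXT4 was 128 min from the FPKM as deposited and 1932 min at the same total yeast FPKM. Without the 30 min library that of HXT4 was 67.1 min, past the limit.

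The make-up of the transporter mRNAs is free of the scaling, since it is a share within a library. HXT3 made up 77.8% of the summed FPKM of the 7 transporters before the shift, 58.4% after 20 min, 52.8% after 45 min and 63.8% after 60 min. HXT2 held 14.5% before the shift, 25.4% after 20 min, 25.8% after 45 min and 15.5% after 60 min. The share of HXT5 was 2.62% before the shift, 11.0% after 20 min, 19.0% after 30 min and 15.9% after 60 min. So HXT3 remained the main transporter mRNA, and HXT5 stood level with HXT2 in the 60 min library. HXT1 had 2.40% before the shift and 0.454% after 60 min, while HXT4 had 2.42% and 3.22%. HXT6 and HXT7 together had 0.278% before the shift, 1.71% after 45 min and 1.08% after 60 min. This sum does not depend on how reads were split between them. It would be too low if reads that match both genes were dropped, which is not known here. The ratio of HXT5 to HXT3 in FPKM was 0.0337 before the shift, 0.343 after 30 min and 0.249 after 60 min. The summed scaled FPKM of the 7 transporters was 1346 before the shift, 1367 after 10 min and 519.7 after 60 min.

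**Figure D4:**
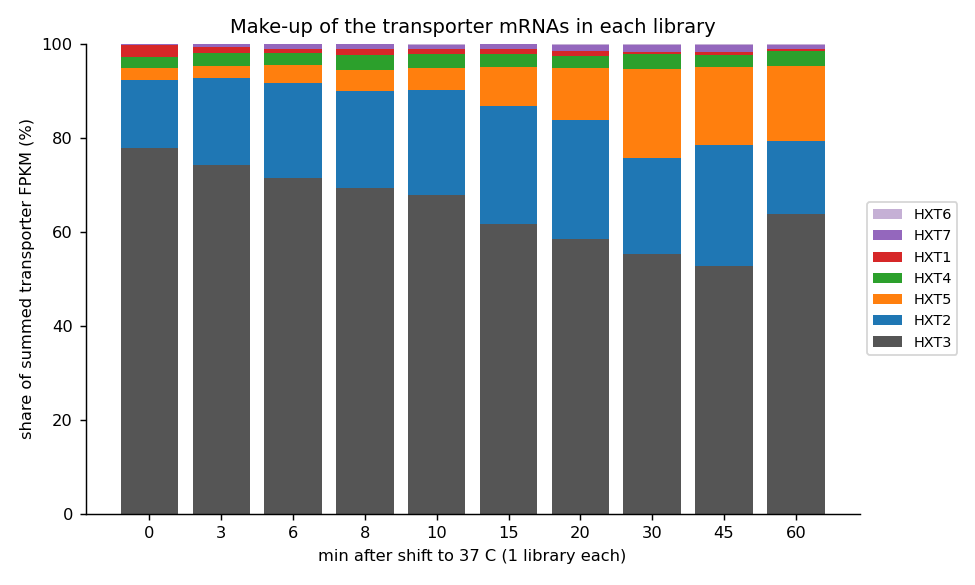
Share of each transporter in the summed FPKM of HXT1 to HXT7 (vertical axis, percent from 0 to 100) in each of the 10 libraries. HXT3 holds the largest share in every library, and the share of HXT5 grows to 19.0% at 30 min.

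The scaling moved every slope and relative level, and it turned the direction of RGT2 and of the slope of HXT7. The median slope of all genes was −0.17 per 10 min with spike-in scaling, −0.11 for the FPKM as deposited and −0.04 at the same total yeast FPKM. The slope of RGT2 was −0.05 with spike-in scaling and 0.08 at the same total yeast FPKM, and that of HXT7 was −0.06 and 0.07, none of them past the threshold. RGT2 at 60 min was 0.537 of its 0 min level with spike-in scaling and 1.02 of it at the same total yeast FPKM. HXT4 was at 0.514 and 0.978 under these scalings, and HXT5 at 2.34 and 4.46. The median slope of the same 8 members was −0.13 with spike-in scaling, −0.07 for the FPKM as deposited and −0.0065 at the same total yeast FPKM, where 28.3% of all genes fell and 13.2% rose. HXT1 and HXT3 fell, and HXT5 rose, under all 4 scalings.

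**Figure D5:**
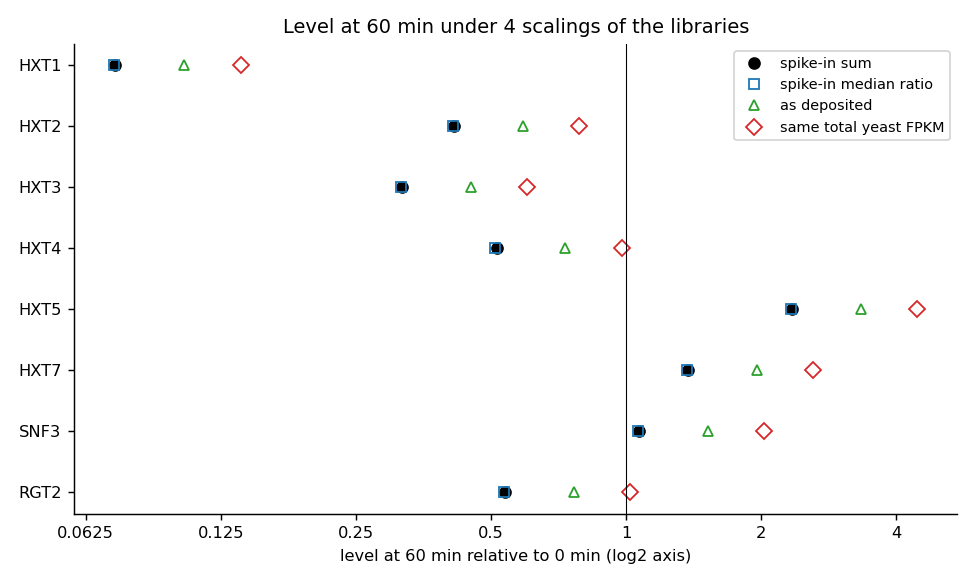
Level at 60 min relative to 0 min (log2 axis) of the 8 genes tested, with the libraries scaled to the spike-in sum, to the median spike-in ratio, left as deposited or scaled to the same total yeast FPKM. HXT1 stays lowest and HXT5 highest in each scaling, while RGT2 and HXT4 come to lie near 1 at the same total yeast FPKM.

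The members differed in the shape of their courses. Over the 10 libraries, log2(scaled FPKM + 1) of HXT3 ran with that of HXT4 (Pearson r 0.97) and of HXT1 (0.94) and opposite to that of HXT5 (−0.87). HXT6 and HXT7, most of whose sequence is shared, had an r of 0.77, and HXT7 and SNF3 of 0.70, while the sensors SNF3 and RGT2 had 0.09. These values describe 10 libraries of 1 time course that share their scaling, and the libraries are not independent samples.

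Each course was compared with those of 4096 other genes with a mean scaled FPKM of at least 10. An r of at least 0.9 was reached with HXT3 by 35.0% of these genes, with HXT1 by 34.9%, with HXT4 by 16.0% and with HXT2 by 5.05%. It was reached with HXT5 by 0.952%, with HXT7 by 0.439%, with SNF3 and RGT2 by 0.0977% each and with HXT6 by 0.0488%. Depth differed between the members as well. HXT3 had 2366 to 6621 estimated fragments per library and HXT5 228 to 1116, but HXT7 only 22 to 102, SNF3 63 to 187 and RGT2 57 to 129, and the part of counting noise in these shares was not tested. The 3 genes most like HXT3 were MEU1 (r 0.996), RPS7B (0.995) and GAS1 (0.995). Those most like HXT6 were APA1 (0.937), RPN4 (0.926) and HSP12 (0.90), although HXT6 had at most 10 fragments in any library. Most like HXT5 was ACS1, which encodes an acetyl-CoA synthetase (0.994). Most like HXT7 was NRG1, which encodes a transcriptional regulator (0.972), and most like SNF3 was JEN1, which encodes a monocarboxylate transporter (0.939). The closest gene was YPQ1 for HXT1 (0.981), CWP1 for HXT2 (0.991), PRY2 for HXT4 (0.970) and BYE1 for RGT2 (0.931).

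Among classed codons, the transporters had a higher share of the optimal class than the sensors did. The classes were read from reporter oligos of the study and held only 9 OPT and 9 NON-OPT codons. Only part of each gene was therefore classed, such as 190 codons in HXT1 and 289 in SNF3. The study itself binned mRNAs by another definition of codon optimality. The share of OPT codons among the classed codons was computed from the R64 coding sequences. It was 89.9% in HXT6 and HXT7, 89.7% in HXT4, 86.1% in HXT3, 82.1% in HXT1, 74.5% in HXT2 and 69.9% in HXT5. SNF3 had 52.9% and RGT2 51.7%, close to the median of 52.7% over 5420 genes. Within the transporters the order by codon content was not the order of the decline, since HXT1 with 82.1% had the lowest relative level at 60 min and HXT5 with the lowest share the highest of those tested.

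The pathway that joins the sensors to the HXT promoters was followed in 8 further genes. Over 0 to 60 min 4 of them fell, 0 rose and 4 did not pass, with a median slope of −0.15 per 10 min. Of all genes tested 57.7% fell and 1.68% rose, with a median slope of −0.17. CYC8, a corepressor subunit, fell by 0.27 per 10 min (SE 0.0560, limma adjusted p = 0.00171). MTH1 (−0.12 per 10 min), STD1 (−0.04) and RGT1 (−0.05) did not pass, with adjusted p-values of 0.121, 0.636 and 0.260. In the first 20 min MTH1 fell by 0.68 per 10 min (adjusted p = 0.00229), with a scaled FPKM of 62.1 before the shift, 28.5 after 20 min and 38.7 after 60 min. In that range 5 of the 8 genes fell, beside 59.5% of all genes tested. Their median slope was −0.56 per 10 min, against −0.46 for all genes tested.

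Of 10 genes of the glucose repression pathway, 5 fell, 1 rose and 4 did not pass over 0 to 60 min, with a median slope of −0.11 per 10 min. This stands beside 57.7% falling and 1.68% rising of all genes tested, with a median slope of −0.17. GAL83, a subunit of the Snf1 kinase complex, fell by 0.31 per 10 min (limma adjusted p = 0.00146). REG1, a regulatory subunit of the phosphatase that counteracts Snf1, rose by 0.11 (adjusted p = 0.0279), to 1.35 times its 0 min level at 60 min. The repressors MIG1 (−0.08, adjusted p = 0.258) and MIG2 (0.00, adjusted p = 0.996) did not pass. MIG2 had a scaled FPKM of 79.9 before the shift, 11.9 after 15 min and 36.0 after 60 min, and in the first 20 min it fell by 1.07 per 10 min (adjusted p = 0.0105), as MIG1 did by 0.65 (adjusted p = 0.00475). In that range 7 of the 10 genes fell, beside 59.5% of all genes tested. Their median slope was −0.41 per 10 min, against −0.46 for all genes tested.

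The hexose phosphorylating enzymes act on the sugar once it is inside. Of these 3 genes, 2 fell and 1 did not pass, beside 57.7% falling of all genes tested. Their median slope was −0.24 per 10 min, against −0.17 for all genes tested. HXK2, the main hexokinase in rich glucose, fell by 0.27 per 10 min (limma adjusted p = 0.000911). HXK1 (−0.14, adjusted p = 0.108) had a scaled FPKM of 662.7 before the shift, 1681 after 10 min and 534.1 after 60 min. With spike-in scaling its highest value was in the same library as those of HXT2, HXT7 and SNF3. In the FPKM as deposited, HXT7 was instead highest at 8 min (15.1, against 14.3 at 10 min). SNF3 was highest there at 15 min (15.3, against 14.1 at 10 min).

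In the branch from the receptor Gpr1 and Ras to protein kinase A, 7 of 13 genes fell, 1 rose and 5 did not pass, with a median slope of −0.13 per 10 min. RAS1, a small GTPase, fell by 0.31 (limma adjusted p = 0.00825), and PDE1, a cyclic AMP phosphodiesterase, rose by 0.17 (adjusted p = 0.0190). Of 13 other members of the sugar transporter family, 6 were below the minimum mean FPKM, 1 fell and 6 did not pass, with a median slope of −0.08 per 10 min. The 1 that fell was the maltose transporter gene MAL31 (−0.18, adjusted p = 0.0185), named after its values were seen. Of all genes tested 57.7% fell and 1.68% rose over 0 to 60 min, with a median slope of −0.17 per 10 min. Over 0 to 20 min 59.5% fell and 2.32% rose. None of these small lists was tested as a set. With libraries scaled to the same total yeast FPKM, where 28.3% of all genes fell and 13.2% rose, 1 gene fell and 2 rose in the induction pathway, 1 fell and 2 rose in the repression pathway, 2 fell and 0 rose among the phosphorylating enzymes, 1 fell and 3 rose in the protein kinase A branch, and 0 of the other transporters passed. CYC8, GAL83 and HXK2 still fell and REG1 and PDE1 still rose under that scaling, while RAS1 (adjusted p = 0.0785) and MAL31 (0.301) no longer passed.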

How the data were processed

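Paired reads were aligned to sacCer2 by the authors, using Bowtie 0.12.7. Cufflinks 1.3.0 gave the deposited FPKM for 6717 yeast and 92 ERCC rows, without spike-in scaling (CASAVA is also named in the submitters' processing notes). The libraries came from a stranded mRNA or total RNA kit, and which one is not given per library in the sources used here. Whether the duplicate culture that the labels mention was pooled into the deposited values is not given in the sources used here, and no separate values of it were used.

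Here the FPKM of a library were scaled by its ERCC total, taken relative to the 0 min library (factors 1.05 to 1.42 after the shift, 73 spike-ins detected). Systematic names were matched to RefSeq R64 for 6025 rows, which gave 5439 protein-coding genes with a described product. Slopes were fitted with limma 3.58.1 (R 4.3.3) on log2(scaled FPKM + 1), so that changes of low genes are understated, for 5176 genes with a mean of at least 1, with time as a continuous term and p-values adjusted over all of them. Decay curves, identities and counts were computed with Python 3.11.15. The limma fits and the decay fits were tested on simulated straight lines and exponential decays with independent noise. Errors shared between genes and courses of other shapes were not simulated, so these tests do not bear on them. Fragments were estimated from the steps of low FPKM values, of which 86.7% to 100% per library lay within 0.1 of a whole fragment. Intervals come from these estimates at a confidence level of 95%, are exact (Poisson for levels, binomial for ratios) and cover counting error only.

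The members and the lists were chosen with earlier results of these data known. Named genes are the 9 members, MTH1, STD1, RGT1, MIG1, MIG2, HXK1 and HXK2, in each list the steepest rising and falling gene past the threshold with a mean of at least 10, the 3 genes most correlated with the most abundant member and with the one of the highest relative level at 60 min (HXT6, whose ratio rests on 1 fragment at 0 min), the 1 most correlated with each other member, and POP2. Alternatives were other scalings, pseudocounts, filters, time ranges, baselines and decay models, and leaving out each library.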

Additional observations from a re-analysis of the deposited data

How the results depend on the processing

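The count of members that fell over 0 to 60 min was 4, and it became 2 at the same total yeast FPKM, 2 with 0 to 20 min only and 0 with 10 to 60 min only. The count that rose was 1, and it became 2 with 0 to 20 min only and 0 with 10 to 60 min only. HXT2, which fell by 0.25 per 10 min, had a slope of 0.034 per 10 min with 0 to 20 min only. Leaving out each library gave 3 to 5 falling and 1 rising member over 0 to 60 min, 2 to 3 falling and 1 to 2 rising members over 0 to 20 min, and 0 to 4 falling members over 10 to 60 min. In the same fits the falling genes of all 5176 numbered 1938 to 3238 over 0 to 20 min and 0 to 1394 over 10 to 60 min. Leaving out a library gave 2 to 4 members with a half-life, against 3 with all libraries, where 53.0% of all genes fitted had one. HXT7 and SNF3 did not pass over 0 to 60 min, except HXT7 without the 0 min library, and their slopes took both signs when libraries were left out. Calls over all genes were 87 rising and 2988 falling, 283 and 2309 for FPKM as deposited, and 688 and 1471 at the same total yeast FPKM. They were 120 and 3080 with 0 to 20 min only, and 0 and 1 with 10 to 60 min only. The ranges from 0 to 20 and from 10 to 60 min hold fewer libraries, and the cause of the other changes was not tested. The leave-one-out fits of the 0 to 20 and 10 to 60 min ranges were chosen after seeing the data. No paired analysis was possible because there is 1 strain with 1 library per time point. Depth limits HXT6, with 1 to 10 fragments per library, and HXT7, with 22 at 0 min.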
